A study of Mus musculus with 6 samples.

Results

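Adipocytes store triglyceride and secrete hormones, and a kidney carries them in the fat of its capsule, hilum and sinus rather than among its tubules. The values of 10 adipocyte marker genes (Adipoq, Plin1, Plin4, Cidec, Cidea, Lep, Retn, Fabp4, Lpl and Ucp1) were compared in kidney RNA of male C57BL/6 mice at 20 months (aged, 3 samples) and 2 months (young, 3 samples). C57BL/6 is an inbred laboratory strain, and the labels give no transgene, deletion or treatment in either group. Probes were taken as members where the array annotates them with a RefSeq transcript of one of these genes, which gave 13 of 55681 non-control probes. At least 1 probe was found for each of the 10 genes, out of 20284 genes named in this way. Each array was a single-colour Agilent array carrying 1 sample, and the labels name independent RNA preparations without saying whether each came from a separate mouse. The p-values therefore reflect only the scatter among these preparations, and that scatter may be technical. All 6 arrays lay on 1 slide, aged and young samples in different slide rows, so the effect of age and that of the slide row cannot be told apart.

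The arrays differed in brightness: 46.3% to 62.8% of probes exceeded background clearly on the aged arrays, against 55.3% to 72.9% on the young arrays. Kidney identity was clear, since all 12 of 12 kidney markers (among them Umod, Slc34a1 and Aqp2) were well above background on every array. With 3 arrays per age, precision is limited by their number. In RNA of a whole organ, fewer cells of a type and less RNA per cell cannot be told apart.

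The 10 genes fall into groups by role. Plin1 and Plin4 encode perilipins, which coat the lipid droplet, and Cidec and Cidea encode proteins that join droplets into larger ones. Adiponectin (Adipoq), leptin (Lep) and resistin (Retn) are hormones released by mouse adipocytes. Fabp4 carries fatty acids inside adipocytes, macrophages and capillary endothelium, and Lpl is the lipase that frees fatty acids from lipoproteins at the capillary wall. Ucp1, the uncoupling protein of heat production, marks brown and beige adipocytes, in which Cidea is abundant. Many of these genes are known targets of the nuclear receptor PPAR-gamma and of C/EBP factors during adipocyte differentiation.

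Promoter sequences are shown for a gene of each pattern described below: Plin4, the marker past the threshold, Adipoq, whose pattern several markers share, Lep, which was near background, and Ucp1, which ran the other way on the young arrays. They are the 250 bases before the transcript start in RefSeq (build GRCm38.p6), which held an entry for 7 of the 10 genes. Capitals mark exact matches, on either strand, to the TATA box core TATAA, the CCAAT box, the GC box core GGGCGG, the C/EBP palindrome TTGCGCAA or the nuclear receptor core AGGTCA, and overlapping matches run together.
Adipoq (chr16:23146286-23146535, plus strand): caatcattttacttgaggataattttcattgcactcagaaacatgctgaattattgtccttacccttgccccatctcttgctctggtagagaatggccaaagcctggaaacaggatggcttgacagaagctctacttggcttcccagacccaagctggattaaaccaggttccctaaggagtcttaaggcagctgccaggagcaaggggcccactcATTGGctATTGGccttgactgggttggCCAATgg
Plin4 (chr17:56109783-56110032, minus strand): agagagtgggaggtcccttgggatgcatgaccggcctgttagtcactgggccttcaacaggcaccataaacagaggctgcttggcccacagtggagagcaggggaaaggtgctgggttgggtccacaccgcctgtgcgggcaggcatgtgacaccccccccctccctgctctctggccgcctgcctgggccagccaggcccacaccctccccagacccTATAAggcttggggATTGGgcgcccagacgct
Lep (chr6:29059971-29060220, plus strand): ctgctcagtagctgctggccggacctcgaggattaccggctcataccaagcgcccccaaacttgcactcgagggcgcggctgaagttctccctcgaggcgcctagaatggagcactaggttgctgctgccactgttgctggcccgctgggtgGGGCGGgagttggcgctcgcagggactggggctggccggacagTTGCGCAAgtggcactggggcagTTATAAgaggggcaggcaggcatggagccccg
Ucp1 (chr8:83290098-83290347, plus strand): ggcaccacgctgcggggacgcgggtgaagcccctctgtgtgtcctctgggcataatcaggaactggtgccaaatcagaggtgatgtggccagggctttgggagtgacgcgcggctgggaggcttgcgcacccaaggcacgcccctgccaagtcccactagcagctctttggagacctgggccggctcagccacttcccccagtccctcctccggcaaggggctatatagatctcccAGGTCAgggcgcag
Adipoq held 3 CCAAT boxes, and Plin4 a TATA box core and a CCAAT box. Lep held a TATA box core on each strand (overlapping), a C/EBP palindrome and a GC box core, and Ucp1 a nuclear receptor core. Of 32851 promoters of this length, 33.8% held the CCAAT box, 22.8% the TATA box core, 32.7% the GC box core, 14% the nuclear receptor core and 0.164% the C/EBP palindrome. The direct repeat of the nuclear receptor core with 1 base between its copies, which PPAR-gamma binds with RXR, was in 0.0335% of them and in none of the 8 windows of the marker genes. No match says only that these letters were not in the window. The windows of Plin1, Retn and both Cidec starts held none of the motifs.

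The comparison asked which of these genes differ between aged and young kidney. In aged kidney Plin4 was 3.43-fold higher and passed the threshold, while Adipoq, Cidec, Plin1 and Retn were 3.29-fold, 3.27-fold, 2.45-fold and 2.22-fold higher on average without passing it. The young arrays were spread widely for these genes. Fabp4 differed little between the ages, and Lpl was lower in aged kidney on both of its probes without passing the threshold. Lep was above background on 1 aged array and no young array, and Ucp1 on 2 young arrays and no aged array. For Ucp1 this count does not order the ages, since aged replicate 3, not above background, was brighter than young replicate 2, which was.

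Tests used limma on log2 signal, with adjustment over 14545 tested genes and an adjusted p threshold of 0.05. To be tested, a gene's probe had to exceed background on every array of 1 age or of both. Of the 10 marker genes, 8 were tested and 2 (Lep and Ucp1) were not. Of the 8, 1 passed as higher and 0 as lower (4 higher and 0 lower at an unadjusted p under 0.05, a level that 17.1% of all tested genes reached). Among all tested genes 3.55% were called, 2.06% as higher and 1.49% as lower. The arrays of the 2 ages did not overlap for 3 markers that were higher in aged kidney (Plin4, Adipoq and Cidec) and 1 that was lower (Lpl), against 9.83% and 11.6% of all tested genes. The median change of the 8 markers was 1.22 on the log2 scale, with 6 above 0, beside a median of -0.01 over all tested genes, of which 47.1% were above 0. The marker median was 0.65 without young replicate 1.

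**Figure D1:**
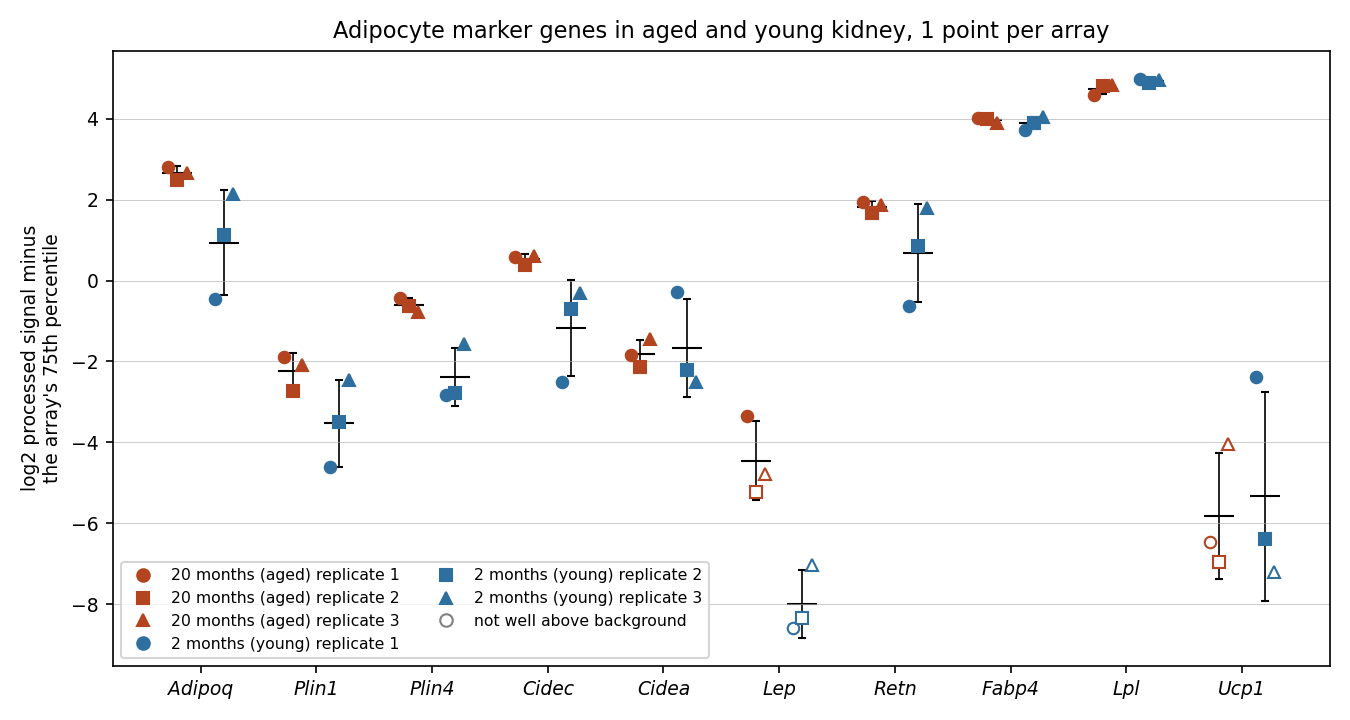
Level of each adipocyte marker gene on each array, as log2 processed signal minus the array's 75th percentile, with aged samples left of young ones and black bars for mean and SD (n = 3 arrays per age). Open symbols were not well above background. Young replicate 1 is lowest for Adipoq, Plin1, Plin4, Cidec and Retn and highest for Cidea and Ucp1, and levels of different genes cannot be compared because each has its own probe.

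Levels are given from here on as log2 processed signal minus the array's 75th percentile, for replicates 1, 2 and 3 in turn. Plin4, a perilipin found mainly in white adipocytes, had levels of -0.43, -0.62 and -0.79 in aged kidney and -2.83, -2.78 and -1.56 in young kidney. Every aged array lay above every young array. Plin4 rose by 1.78 ± 0.32 on the log2 scale (SE, n = 3 arrays per age, limma adjusted p = 0.0261). The call ended without aged replicate 2 (adjusted p = 0.106), aged replicate 3 (0.0771), young replicate 1 (0.0749) or young replicate 2 (0.0801). It also ended with no filter on dim probes (0.177) and with a replicate block (0.0580). The change stayed between 1.56 and 2.19 in these and the other alternatives.

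Plin1, the perilipin that governs access of lipases to the droplet, had levels of -1.88, -2.72 and -2.10 in aged kidney and -4.61, -3.50 and -2.46 in young kidney. The groups overlapped, since young replicate 3 lay above aged replicate 2. The difference was 1.29 ± 0.48 (limma adjusted p = 0.221), with a 95% interval of 0.18 to 2.40, and it was 0.75 without young replicate 1.

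Cidec, which joins droplets in white adipocytes, had levels of 0.59, 0.39 and 0.62 in aged kidney and -2.51, -0.71 and -0.29 in young kidney. Its groups did not overlap, yet the spread of the young arrays was large. The difference was 1.71 ± 0.49 (limma adjusted p = 0.121; 95% interval 0.57 to 2.84), and 1.04 without young replicate 1, where it passed (adjusted p = 0.0391). A second Cidec probe, tested among all probes, gave 1.64 ± 0.54 (limma adjusted p = 0.215) with non-overlapping groups.

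Adipoq, the hormone adiponectin and the marker most restricted to adipocytes, had processed signals of 28867, 21046 and 15389 in aged kidney and 2903, 7996 and 11353 in young kidney. After scaling, its levels were 2.82, 2.48 and 2.67 in aged kidney and -0.45, 1.13 and 2.13 in young kidney. Adipoq RNA was thus measured well above background in every sample, also in the young kidney with the lowest level. The young arrays differed 5.97-fold between the highest and the lowest, the aged arrays 1.27-fold. The difference between the ages was 1.72 ± 0.54 (limma adjusted p = 0.154; 95% interval 0.47 to 2.97), and 1.03 without young replicate 1.

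Retn, the hormone resistin, is made by adipocytes in mice. Its brighter probe had levels of 1.95, 1.66 and 1.86 in aged kidney and -0.62, 0.87 and 1.79 in young kidney. Young replicate 3 lay within the aged range, and young replicate 1 far below it. The difference was 1.15 ± 0.51 (limma adjusted p = 0.302; 95% interval -0.02 to 2.32), and 0.50 without young replicate 1. The second Retn probe had levels of 0.67, 0.82 and 0.93 in aged kidney and -2.77, -0.42 and 0.63 in young kidney, with a difference of 1.66 ± 0.76 (limma adjusted p = 0.348). The groups did not overlap on that probe and overlapped on the brighter probe.

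Lep, the satiety hormone leptin, was read by a probe printed as 10 spots on each array. It was well above background on aged replicate 1 (level -3.35) and on none of the other 5 arrays, where the values have no order. Lep was not tested. The mean of the 3 aged arrays was at least 3.62-fold above the lowest signal of the young arrays that clearly exceeded background. Of the 3 aged arrays in that mean 1 measured the gene, and the other two entered at values not above background, so the bound is only as firm as those.

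**Figure D2:**
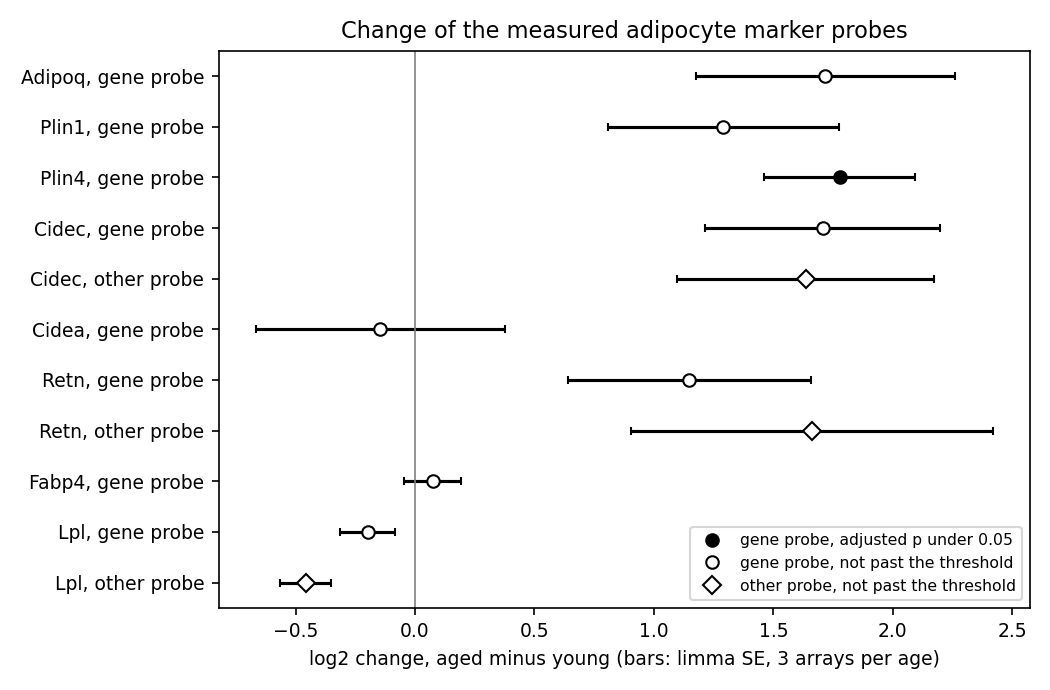
Log2 change, aged minus young, of each tested adipocyte marker probe with its limma SE (3 arrays per age). Circles are the gene's brightest probe, diamonds another probe of the gene, and the filled circle is Plin4 at 1.78, which alone passed the threshold.

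Fabp4 and Lpl are also made outside adipocytes. Fabp4 had levels of 4.01, 3.99 and 3.90 in aged kidney and 3.73, 3.90 and 4.04 in young kidney. The groups overlapped, and the difference was 0.07 ± 0.12 (limma adjusted p = 0.814), with a 95% interval of -0.20 to 0.35 that bounds a change in either direction. Lpl had levels of 4.59, 4.82 and 4.84 in aged kidney and 4.98, 4.89 and 4.96 in young kidney. Every aged array lay below every young array, by little. The difference was -0.20 ± 0.12 (limma adjusted p = 0.442; 95% interval -0.46 to 0.07). A second Lpl probe gave 2.89, 3.01 and 2.92 in aged kidney and 3.37, 3.37 and 3.46 in young kidney. Its groups did not overlap either, and the difference was -0.46 ± 0.11 (limma adjusted p = 0.0943). Of 12 tested endothelial markers, 0 passed limma's threshold (0 at an unadjusted p under 0.05), with a median change of -0.04. Their summed scaled signal (linear, relative to each array's 75th percentile) ranged over 39.2 to 42.8 in aged kidney and 40.2 to 41.3 in young kidney.

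Cidea and Ucp1 ran against the other markers on the young arrays. Cidea, a droplet protein of brown and beige adipocytes, had levels of -1.84, -2.14 and -1.45 in aged kidney and -0.27, -2.22 and -2.50 in young kidney. Young replicate 1 stood above all other arrays, and the other two young arrays below the aged ones. The difference was -0.14 ± 0.52 (limma adjusted p = 0.924; 95% interval -1.35 to 1.06). It was 0.55 without young replicate 1 (adjusted p = 0.373), so its sign rests on that array.

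Ucp1 was well above background on young replicates 1 and 2 and on no aged array, and was not tested. Its processed signal was 46.2, 30.2 and 146 in aged kidney and 757, 43.7 and 17.4 in young kidney. Young replicate 1 alone stood clear of the rest. Aged replicate 3 (146), not well above background, was brighter than young replicate 2 (43.7), which was, so the count of such arrays does not order the ages. Over all arrays of an age, the young mean did not exceed the bound set by the background of the aged arrays, so no fold is given.

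Other thermogenic genes gave a mixed picture on that array. Cox8b, a cytochrome oxidase subunit of brown fat and muscle, had levels of -3.58, -3.20 and -3.22 in aged kidney and -1.97, -3.52 and -3.46 in young kidney, so young replicate 1 was again the highest. Dio2, the deiodinase that activates thyroid hormone, and Otop1 were well above background on young replicate 1 alone. That array had the largest share of probes above background (72.9%), so this flag alone does not show a higher level. Otop1 was at -5.71 there and at -5.58 on aged replicate 3, where 46.3% of probes were above background. Elovl3, Lhx8 and Fgf21 were above background on no array. Ppara, the fatty acid receptor, had levels of 2.23, 2.14 and 2.43 in aged kidney and 2.07, 2.25 and 2.31 in young kidney, so for it young replicate 1 was the lowest array. The genes of this paragraph are named after their values were seen.

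Several urothelium markers moved with Cidea and Ucp1 across the young arrays. The median level of the 7 tested genes of the list was 0.35 on young replicate 1 and -3.08 and -2.95 on young replicates 2 and 3. On the aged arrays it was -3.36, -2.87 and -3.66. Not all members followed this: Trp63 was lowest on young replicate 1 (4.72). Krt20 was highest on aged replicate 2 (-2.50, against -2.83 on young replicate 1). Upk3b had levels of -1.79, -1.86 and -2.30 in young kidney. Upk3a, a urothelial plaque protein, had levels of -4.19, -3.33 and -4.78 in aged kidney and 1.17, -3.08 and -2.95 in young kidney. All 9 of 9 urothelium markers were well above background on young replicate 1, against 4 to 8 on the aged arrays and 9 and 7 on the other young arrays. Over all probes, the share above background was also highest on young replicate 1 (72.9%) and lowest on aged replicate 3 (46.3%). The summed scaled signal of the urothelium list ranged over 27.6 to 38.1 in aged kidney and 27.6 to 33.1 in young kidney, nearly all of it from the Trp63 probe. The sum of the other 8 genes, taken after the data were seen, was 0.603, 0.825 and 0.536 in aged kidney and 6.74, 0.903 and 0.810 in young kidney, so young replicate 1 stood far above the rest, and none of its defining genes was below background on all arrays. The part of the cells this list marks in the Cidea and Ucp1 values was not tested.

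**Figure D3:**
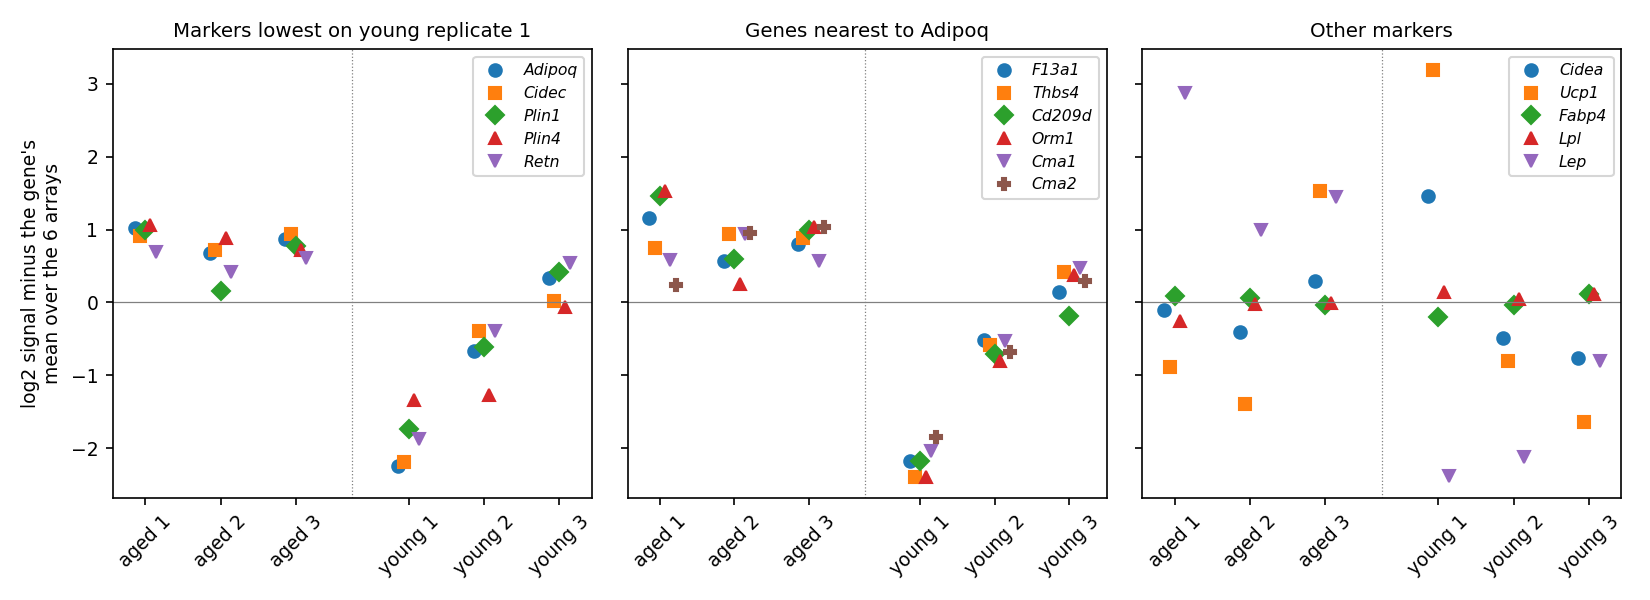
Log2 signal of each gene on each array minus that gene's mean over the 6 arrays. The left panel groups the markers that are lowest on young replicate 1 (Adipoq, Cidec, Plin1, Plin4 and Retn). The middle panel shows the 6 genes nearest to Adipoq, whose low there follows from how they were chosen. On the right, Cidea and Ucp1 are highest on young replicate 1, and Fabp4 and Lpl stay near 0. Most Lep and Ucp1 points were not well above background.

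The spread of the young arrays set these genes apart from most others. The SD over the 3 young arrays was 1.30 for Adipoq, 1.22 for Retn, 1.21 for Cidea, 1.18 for Cidec, 1.08 for Plin1 and 0.72 for Plin4, at percentiles 99.8, 99.7, 99.7, 99.7, 99.6 and 99.1 of all tested genes. The SD over the aged arrays was 0.17 for Adipoq, 0.15 for Retn, 0.35 for Cidea, 0.12 for Cidec, 0.44 for Plin1 and 0.18 for Plin4, at percentiles 49.8, 39.7, 87.1, 29.9, 92.3 and 51.5, so Plin1 and Cidea were widely spread on the aged arrays too. Fabp4 and Lpl were at percentiles 61.4 and 12.4 on the young arrays.

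Genes whose pattern was most like that of Adipoq were sought among 1109 genes above background on all 6 arrays that ranged over at least 1 on the log2 scale. Likeness was the mean absolute difference, over the 6 arrays, between each gene's and Adipoq's deviation from its own mean. Among the markers it was 0.14 for Cidec, 0.21 for Plin1, 0.28 for Retn and 0.39 for Plin4, and 1.30 for Cidea. The 6 nearest genes that are not markers were F13a1 (0.12), the A chain of coagulation factor XIII, Thbs4 (0.14), a thrombospondin, Cd209d (0.21), a C-type lectin, Orm1 (0.24), an acute phase protein, and Cma1 (0.25) and Cma2 (0.28), mast cell chymases. F13a1 had levels 1.69 ± 0.51 higher in aged kidney (limma adjusted p = 0.136) and Cd209d 2.04 ± 0.47 (0.0592). None of the 6 passed the threshold, and these likenesses describe 6 arrays. The median level of the macrophage markers was 1.00, 0.93 and 1.11 in aged kidney and 0.31, 0.56 and 0.67 in young kidney, lowest on young replicate 1 as well.

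Genes that work with the markers were read from lists chosen by role, with earlier results of these data known. Among other secreted and surface genes of adipocytes, 3 of 15 tested members rose and 0 fell, against 2.06% and 1.49% of all tested genes (median change 0.47). At an unadjusted limma p under 0.05, 8 were higher and 1 lower, a level that 17.1% of all tested genes reached in either direction. Sfrp5, a secreted Wnt antagonist made by adipocytes, had levels of 0.34, 0.03 and -0.03 in aged kidney and -1.36, -1.09 and -1.23 in young kidney. It rose by 1.34 ± 0.14 (limma adjusted p = 0.00379), and unlike the markers above its young arrays lay close together. Sncg, a synuclein found in adipocytes and neurons, rose by 0.83 ± 0.12 (limma adjusted p = 0.0112) and Nnat, a small membrane protein of neurons and adipocytes, by 2.12 ± 0.43 (0.0416). Leaving out any 1 array did not end the call of Sfrp5, but the call of Sncg ended without young replicate 1 or 3 (adjusted p up to 0.0577) and that of Nnat without any array other than young replicate 3 (up to 0.127). Cfd, the adipocyte protease adipsin, named after its values were seen, had levels of 3.23, 3.19 and 3.35 in aged kidney. In young kidney they were 1.65, 2.98 and 3.39, so young replicate 1 was again the lowest. Its groups overlapped, and the difference was 0.58 ± 0.38 (limma adjusted p = 0.497). Of the 15 tested genes, 5 changed below 0, among them Slc2a4 (-0.27 ± 0.12) and Apln (-0.31 ± 0.13).

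The lists of general lipid metabolism held almost no calls. Of 14 other lipid droplet and lipolysis genes 0 passed limma's threshold (1 at an unadjusted p under 0.05; median change -0.03). Lipe, the hormone-sensitive lipase, differed by 0.14 ± 0.10. Fitm1 and Fitm2, which partition lipid into droplets, differed by -0.43 ± 0.17 and -0.24 ± 0.14. Of 17 genes of fatty acid synthesis and esterification 0 passed (3 unadjusted; median -0.02), with Scd2 at -0.40 ± 0.12, Scd1 at 0.50 ± 0.17 (both desaturases) and Pck1 at -0.37 ± 0.16. Of 10 tested genes of fatty acid uptake and lipoprotein lipase cofactors, Gpihbp1 alone passed. Gpihbp1 anchors Lpl to capillary endothelium, and its levels were 1.80, 1.97 and 2.10 in aged kidney and 1.15, 1.35 and 1.41 in young kidney. It rose by 0.65 ± 0.13 (limma adjusted p = 0.0361), opposite in sign to the difference of Lpl itself, and lost its call without any array other than aged replicate 1 (adjusted p up to 0.147). In the same list Angptl8 differed by -0.40 ± 0.13 and Apoc3 by -0.23 ± 0.13, neither past the threshold.

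Of 11 tested transcription factors of adipocyte formation 0 passed limma's threshold (1 at an unadjusted p under 0.05; median change -0.05). Pparg, the master factor of this process, had levels of -1.05, -1.49 and -1.32 in aged kidney and -1.68, -1.59 and -1.39 in young kidney. Its groups overlapped, and the difference was 0.27 ± 0.15 (limma adjusted p = 0.411). Cebpa, the partner of Pparg, differed by -0.75 ± 0.22 (0.119) and Nr1h3, a sterol receptor, by -0.15 ± 0.12 (0.587). Among 11 tested thermogenic genes 0 rose and 2 fell (4 lower at an unadjusted p under 0.05; median -0.13), against 1.49% called lower and 17.1% with such a p in either direction over all tested genes. The genes that fell were the mitochondrial carriers Ucp3 (-0.72 ± 0.11, limma adjusted p = 0.0154) and Ucp2 (-0.67 ± 0.12, 0.0231). The other 9 did not pass, among them Cox8b (-0.35 ± 0.38), Prdm16 (-0.13 ± 0.13), Cox7a1 (-0.12 ± 0.15) and Ppargc1a (-0.11 ± 0.14). The 2 calls therefore do not show a fall of the list. The Ucp3 call ended without aged replicate 2 or young replicate 1 or 3 (adjusted p up to 0.0963), and the Ucp2 call without any 1 of these or aged replicate 3 (up to 0.110). Ucp3 has a second probe that was above background on no array, and the mean of both probes gave 0.25. The potassium channel Kcnk3 differed by -1.05 ± 0.37, but it was above background on 1 aged array only, so the size of this difference is not measured.

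Receptors of the adipocyte hormones showed no call in 6 tested genes (limma; 1 at an unadjusted p under 0.05). Lepr, the leptin receptor, differed by -0.55 ± 0.18 (limma adjusted p = 0.161), Adipor2, an adiponectin receptor, by 0.11 ± 0.12 and Insr by 0.12 ± 0.13. Of 10 adipocyte progenitor genes 0 passed (limma; 1 unadjusted; median -0.02). Dpp4 differed by -0.35 ± 0.10, Fap by 0.22 ± 0.19 and Ly6a by -0.12 ± 0.11.

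Markers of other cells that a kidney sample can hold were read beside these. Macrophage markers rose in 3 of 10 tested genes (7 at an unadjusted p under 0.05; median change 0.58), against 2.06% and 17.1% of all tested genes. They were Trem2, a lipid receptor (1.57 ± 0.27, limma adjusted p = 0.0221), Itgax (0.99 ± 0.13, 0.0104) and C1qc (0.68 ± 0.15, 0.0480). Their summed scaled signal ranged over 29.7 to 34.2 in aged kidney and 19.7 to 27.5 in young kidney, lowest on young replicate 1, and Csf1r and Adgre1 were above background on every array. Their part in the adipocyte marker values was not tested. C1qc lost its call when any 1 of the 6 arrays was left out, Trem2 without aged replicate 2 or 3 or young replicate 1 or 2 (adjusted p up to 0.102), and Itgax without young replicate 3 (0.0523).

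In the adrenal list, Mc2r alone passed, with levels of -3.23, -2.69 and -3.23 in aged kidney and -5.39, -5.90 and -4.61 in young kidney. It rose by 2.25 ± 0.31 (limma adjusted p = 0.0107), and in mice this corticotropin receptor is made by adipocytes as well as the adrenal cortex. The adrenal steroid enzymes Cyp11a1 and Cyp11b1 were above background on no array, and the summed scaled signal of the list was 0.28 to 0.30 in aged kidney and 0.21 to 0.23 in young kidney. Th differed by -0.65 ± 0.31 and Cyp21a1 by -0.46 ± 0.23, but Th was above background on 1 and Cyp21a1 on 2 of the 3 aged arrays, so the sizes of these differences are not measured. The Mc2r call ended without aged replicate 2 (adjusted p = 0.0535) and with no filter on dim probes (0.121).

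Of the urothelium list Upk3b fell by 1.79 ± 0.23 (limma adjusted p = 0.00846). Upk3a (-2.48 ± 1.03) and Upk2 (-1.37 ± 0.58), each above background on 2 of the 3 aged arrays, did not pass. Upk3b did not stand apart on young replicate 1 (young levels -1.79, -1.86 and -2.30) as Upk3a did (1.17, -3.08 and -2.95). Its call therefore does not stand for the urothelium list, and Upk3b was not placed in the mesothelium list. The Upk3b call ended without young replicate 3 (adjusted p = 0.0523). Of 4 tested mesothelium markers 0 passed (limma; 1 at an unadjusted p under 0.05), with Krt7 at -0.49 ± 0.15, Msln at 0.55 ± 0.30 and Krt19 at -0.27 ± 0.67. Of 3 tested skeletal muscle markers 0 passed (1 unadjusted), with Tnni2 at 0.46 ± 0.18, Tnnt3 at 0.30 ± 0.35 and Acta1 at -0.21 ± 0.26, while Ckm, Mylpf, Myh1, Myh2 and Myh4 were above background on no array. Of 3 tested blood cell markers 0 passed (0 unadjusted), with Slc4a1 at -0.24 ± 0.14, Hba-a1 at -0.17 ± 0.12 and Alas2 at -0.16 ± 0.19. Slc4a1 is also counted among the kidney markers, so it does not mark blood cells alone. Of 12 kidney markers 0 passed (1 unadjusted), with Slc12a3 at 0.37 ± 0.13, Kap at -0.73 ± 0.33 and Slc12a1 at -0.25 ± 0.12.

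**Figure D4:**
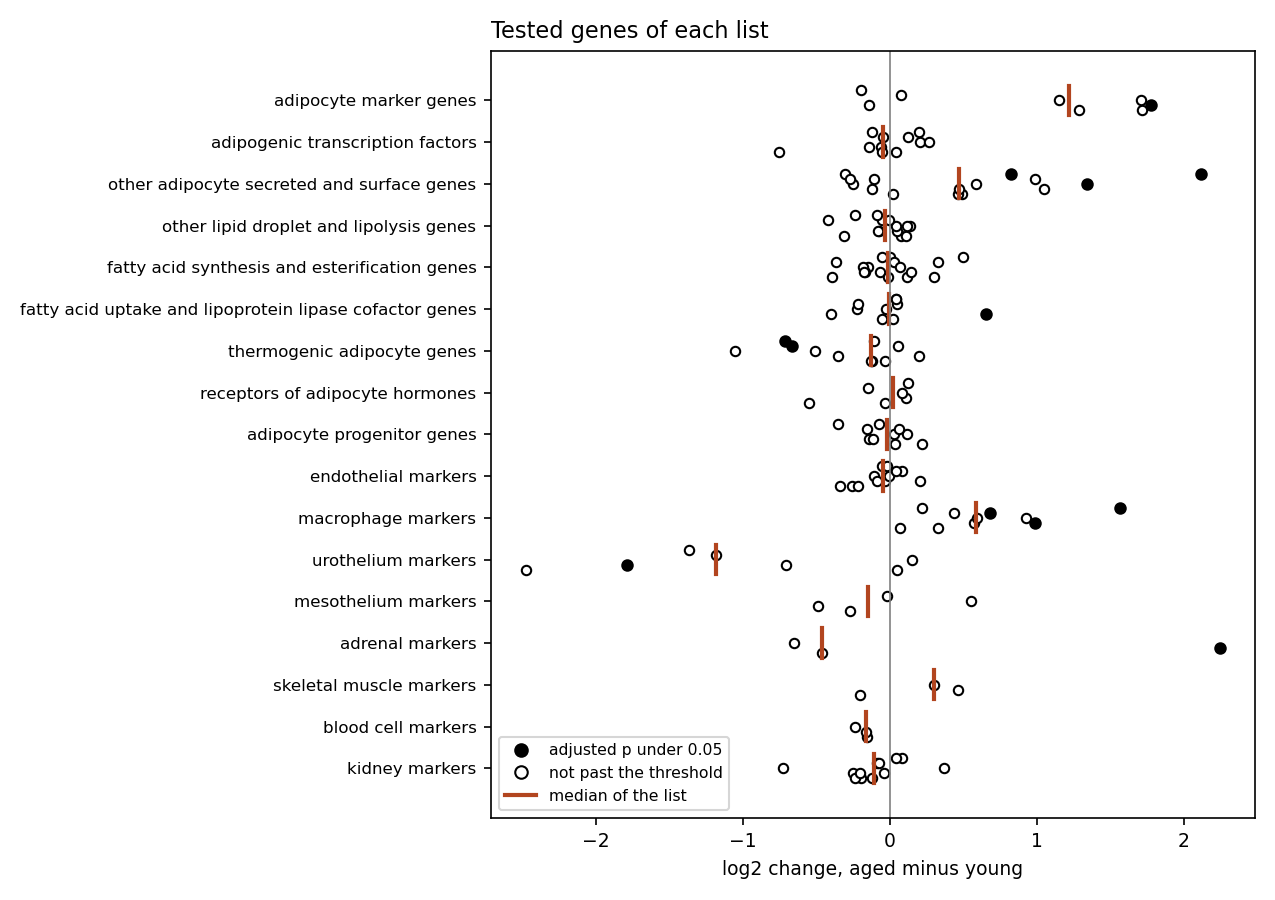
Log2 change, aged minus young, of every tested gene in the adipocyte marker genes and in each related list, with filled points past the adjusted p threshold of 0.05 and a bar at the list's median. The adipocyte markers have a median of 1.22 with 1 filled point (Plin4), other secreted and surface genes 0.47 with 3, and the lists of droplet, synthesis and transcription factor genes lie around 0 with none.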

How the data were processed

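Kidney RNA of 3 aged and 3 young samples was copied to cDNA, into which Klenow enzyme built the Cy3 dye, per the labels' protocols. Per the file headers, arrays of Agilent design 028005 (annotated on mm9) were read by Feature Extraction 11.5.1.1, protocol GE1_1105_Oct12, and the deposited processed signal intensity is background-subtracted and detrended within each array, without scaling between arrays. The authors' deposited values are on the log2 scale and equal the log2 processed signal minus a constant per array, within 0.00825 of the 75th percentile used here; their scale, centring and direction are thereby known.

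Control spots and outlier spots were left out, repeat spots were combined per probe as a mean of log2 values, and each array's 75th percentile was subtracted. Genes were named through RefSeq transcripts (26762 of 55681 probes) and represented by their brightest probe. A probe counts as well above background where at least 0.5 of its spots do. Where an age had no array above background, the fold bound used the lowest such signal of each array, averaged. Aged minus young was tested with limma 3.58.1 (2-sided, R 4.3.3, package data.table, version 1.17.8) with Benjamini-Hochberg adjustment. Figures used Python 3.11.15 and matplotlib 3.10.9. The fit was run on simulated data with known changes, drawn with the same SD for both ages. Unequal spreads such as that of Adipoq (SD 1.30 in young and 0.17 in aged kidney) were not simulated.

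The marker genes and lists were chosen with earlier results of these data known. Named genes were the markers, up to 3 genes per list by smallest p, and the 6 genes nearest to Adipoq; all other genes named, as examples of a list or for being near background, were chosen after their values were seen. No saturated spots occurred. Same-numbered aged and young samples deviated together with correlations of 0.06, -0.09 and 0.10 across 14507 genes, so they were not treated as pairs. Differently numbered samples gave -0.12 to 0.07, lowest for aged 3 with young 1 (-0.12) and aged 1 with young 3 (-0.11). In both ages the 75th percentile of processed signal was highest on replicate 1 and lowest on replicate 3. Normexp (offset 50) was run on the median spot signal. Alternatives were other scalings, filters, background correction, probe summaries and variance models, and leaving out each array.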

Additional observations from a re-analysis of the deposited data

How the results depend on the processing

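With 3 arrays per age the count of calls moved with most choices. The number of genes past the threshold was 517 (300 higher, 217 lower). It was 801 with median centring (434 higher, 367 lower), 289 with normexp (197 higher, 92 lower), 16 with no filter on dim probes, 867 with array weights, 299 with a replicate block, and 80 to 931 leaving out an array. It was 931 without aged replicate 1, 80 without young replicate 3, 167 without aged replicate 2 and 342 without aged replicate 3, and 176 and 251 without young replicates 1 and 2. The number of adipocyte members past the threshold was 1, and 5 with median centring, 0 with no filter, 0 with a replicate block and 0 to 1 leaving out an array. With the replicate block Plin4 had the same change (1.78) and a limma adjusted p of 0.0580. With median centring Adipoq, Cidec, Plin1 and Retn also passed (adjusted p = 0.00058, 0.00029, 0.0056 and 0.0207) at nearly the same changes, where limma's prior degrees of freedom were 33.0 instead of 4.05. Signs turned for Cidea (0.0032 with normexp, -0.56 to 0.55 leaving out an array, above 0 without aged replicate 2 (0.02) or young replicate 1) and Fabp4 (-0.032 with normexp, -0.0041 without young replicate 1 and up to 0.15 leaving out another). They also turned for Adipor2 with normexp (-0.0090), for Cyp21a1 (0.41) and Ucp3 (0.25) with the mean of a gene's probes, for Krt19 without aged replicate 1 (0.03) or young replicate 1 (-0.83 to 0.61 leaving out an array), for Tnnt3 without aged replicate 1 (-0.048 to 0.73) and for Acta1 without young replicate 1 (-0.51 to 0.0085). Apart from the probe means, the cause was not tested. No other gene that was run through these alternatives changed direction. Lep was run in 1 of them and Ucp1 in 2, and genes named only as examples of a list in none. Of the 17 alternatives, the call was lost in 11 for C1qc, 10 for Nnat, 7 each for Gpihbp1 and Ucp2, 5 for Trem2 and 3 for Sncg. It was lost in 4 for Ucp3 (besides the turned sign), 2 each for Mc2r, Itgax and Upk3b and 1 for Sfrp5. Signal near background limits Lep and Ucp1.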
